A study of Equus caballus with 18 samples.

Results

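The 100 genes described here were chosen by measured values, as those that had the lowest Spearman correlation with MYH1 across the skeletal muscles of 1 horse. They were taken from the 11201 genes with at least 10 counts in all 18 libraries, out of 25239 genes in the table. The level of a gene was its log2 CPM, the log2 of its share of the counts in a library (CPM) after TMM scaling, with a prior count of 2 added. Genes that the study plotted in its expression heatmap were left out, and equal correlations were ordered by the lower Pearson correlation. The values that chose the genes are the same values described below, so their relation to MYH1 is a description without a test.

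MYH1 encodes a fast myosin heavy chain, the motor protein of the thick filament in fast glycolytic fibres (type IIx). MYH7 encodes the myosin heavy chain of slow oxidative fibres (type I). A muscle is a mixture of fibre types whose proportions follow its use, with more slow fibres in muscles of posture and more fast fibres in muscles of brief, forceful movement. In libraries made from whole muscle, fewer fibres of a type and less RNA per fibre cannot be told apart.

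Total RNA from 18 muscles of a male Jeju horse, a pony breed from Jeju Island in Korea, was depleted of ribosomal RNA and sequenced, with 1 library per muscle. By the muscle that each label names, 10 muscles are anterior (neck, shoulder girdle, chest and forelimb), 7 are posterior (hindlimb) and 1, the longissimus, lies in the trunk. As each sampled site has 1 library and all are from 1 horse, technical error and the muscle cannot be told apart, and the muscles of a position stand in for its replicates. Muscles 13, 14 and 15 are 3 parts of the biceps femoris, so 3 of the 7 posterior libraries share a muscle. Muscles carry the numbers 1 to 18 of the study, and muscle 18 is a pectoral muscle that the label and the study name differently. Libraries held 31395013 to 50508515 counts on genes, with TMM factors from 0.831 to 1.40. The pair of libraries closest to each other, muscles 14 and 18, still differed by 32.1 times the variance that counting error gives. Libraries were scaled by totals here, without TMM. No library therefore repeated the counts of another, but the value does not show whether libraries came from the same tissue. ACTN2, which encodes a protein of the sarcomere, was at 1472 CPM or more in every library. The table lists genes by Ensembl identifier. The 52 heatmap genes were named because the counts shown there equalled those of 1 identifier in each of 5 muscles compared, and the 100 members are given as a group and by a few identifiers. Reads of the closely alike skeletal myosin genes could have been divided between them in counting, which makes the levels of MYH1 and MYH7 uncertain to that extent.

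The Spearman correlation of the members with MYH1 ran from -0.86 to -0.72, with a median of -0.75, against a median of -0.02 over all genes that met the count rule. The last member, ENSECAG00000017012, and the first gene outside, ENSECAG00000012886, had the same correlation of -0.72 and were separated only by Pearson correlations of -0.59 and -0.57. The next genes outside had correlations of -0.71. The limit is therefore a point in a continuous range of values. At or below it lay 103 genes, 2 of which were slow twitch genes of the heatmap that the rule leaves out, while 131 genes lay at or beyond the same value in the positive direction. The choice also rested on single libraries and on the scaling. Without muscle 9, 55 of the 100 were chosen again, and 50 were with library totals in place of TMM.

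MYH1 itself fell in 2 separate ranges. It was at 135 CPM in muscle 5 (rhomboideus), 165 in muscle 7 (trapezius), 304 in muscle 6 (omohyoideus), 312 in muscle 8 (extensor digitorum communis) and 481 in muscle 17 (extensor digitorum lateralis). In the other 13 muscles it ran from 2311 CPM in muscle 16 (extensor digitorum longus) to 28089 CPM in muscle 9 (extensor carpi radialis). The range from lowest to highest was 208-fold. MYH7 spanned a smaller range, 30.7-fold, from 862 CPM in muscle 9 to 26422 CPM in muscle 7.

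Each muscle was given a score, the mean over the 100 genes of log2 CPM minus the mean of that gene over the 18 muscles. A score of 0 means that the genes stood on average at their own mean level, and a score of 1 that they stood 2-fold above it. The score was highest in muscle 17, at 0.67, followed by muscle 8 at 0.61, muscles 5 and 7 at 0.54 each and muscle 6 at 0.43. These are the 5 muscles with the lowest MYH1, 3 of them from the neck and shoulder girdle and 2 of them distal limb extensors. Muscle 3 (infraspinatus) followed at 0.16, muscle 16 at 0.06 and muscle 2 (biceps brachii) at 0.03. The score was -0.08 in muscle 18, -0.10 in muscle 12 (gluteus superficialis) and -0.12 in muscle 14 (the middle part of the biceps femoris). It was -0.24 in muscle 4 (supraspinatus), -0.27 in muscle 1 (the long head of the triceps brachii) and -0.35 in muscle 15 (the caudal part of the biceps femoris). The lowest scores were -0.42 in muscle 10 (longissimus), -0.45 in muscle 9, -0.46 in muscle 11 (semitendinosus) and -0.55 in muscle 13 (the vertebral part of the biceps femoris). Between muscles 13 and 17 the members differed 2.32-fold on average, which is small beside the range of MYH1.

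**Figure D1:**
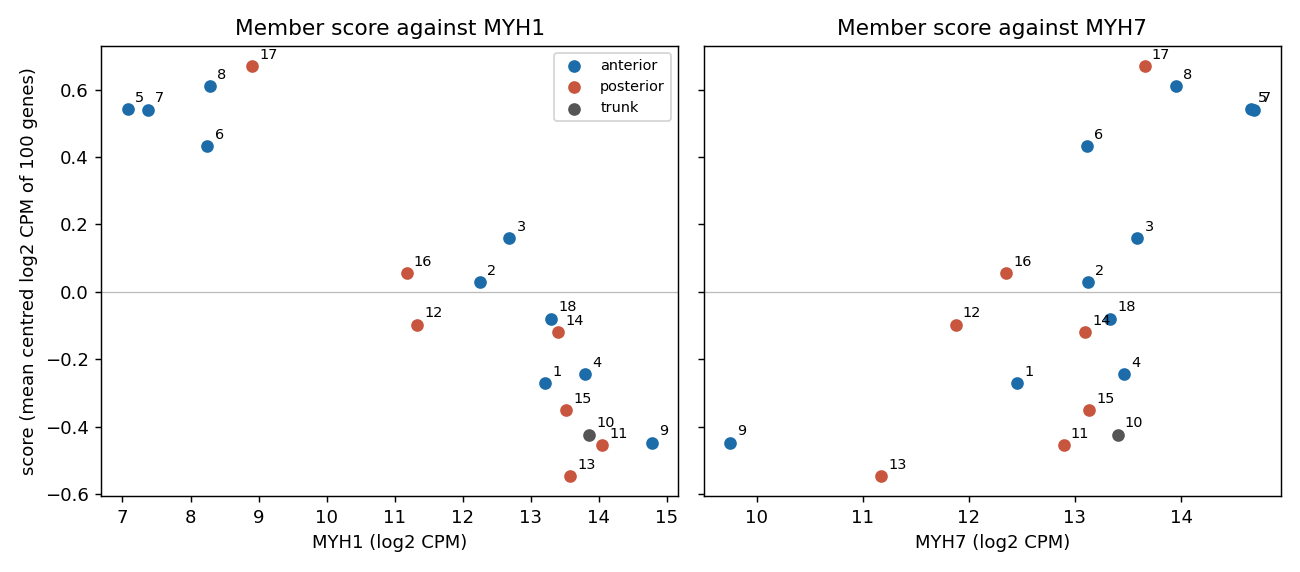
The score of the 100 genes (mean centred log2 CPM, vertical axis) against log2 CPM of MYH1 on the left and of MYH7 on the right, with 1 point per muscle, labelled by muscle number and coloured by position. The 5 muscles of lowest MYH1 have scores from 0.43 to 0.67, and against MYH7 the points are more scattered.

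The members moved together. The first principal component of their centred values held 66.8% of the variance with the same sign for all 100 genes, and the second held 7.18%. The median Spearman correlation between 2 members was 0.67, and every pair was positive, from 0.20 to 0.95. Each member was chosen for its relation to the same gene, so this likeness is a description. Of the members, 91 had their highest level in 1 of the 5 muscles of highest score. Muscle 17 held the highest level of 34 members, muscle 8 that of 16, muscles 5 and 7 that of 15 each and muscle 6 that of 11. Of the lowest levels, 30 were found in muscle 13, 18 in muscle 10, 16 each in muscles 9 and 11 and 14 in muscle 15. In muscle 7 all 100 members stood above their own median over the 18 muscles, in muscle 6 99 did, in muscles 5 and 8 98 and in muscle 17 93. In muscle 11 only 3 did, and in muscle 13 only 7.

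**Figure D2:**
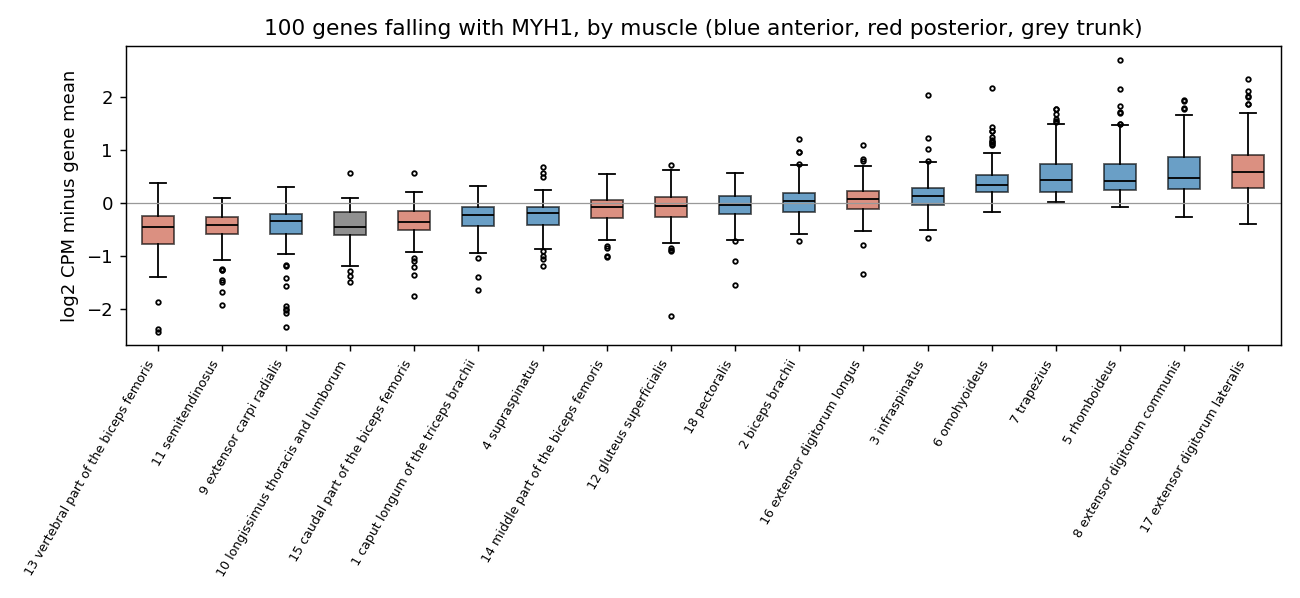
The distribution of the 100 genes in each muscle, as log2 CPM without a prior count minus the mean of the gene (vertical axis), with muscles in the order of the score from left to right. Boxes span the quartiles with the median as a line and dots are genes beyond the whiskers. The boxes of muscles 6, 7, 5, 8 and 17 lie above 0.

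The spread of the members was wide. The median member had 194.5 counts in its median library, the lowest 19 and the highest 9191, and 65 members had at least 100. No member fell below 10 counts in any library, which the rule requires. From its lowest to its highest muscle a member changed by 1.65-fold to 35.4-fold, with a median of 3.07-fold. The range exceeded 2-fold for 89 members, 4-fold for 31 and 8-fold for 17. On the log2 scale the median range was 1.59, against 1.28 over all genes that met the count rule.

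The member with the lowest correlation, ENSECAG00000008488 (-0.86), had a narrow range. Its level was 5.83 CPM in muscle 9, 8.05 CPM in the median muscle and 14.04 CPM in muscle 17. Muscle 17 was followed by muscle 5 at 12.3 CPM, muscle 7 at 11.4 CPM and muscle 8 at 9.75 CPM. The next member, ENSECAG00000023498 (-0.85), was lower, at 0.737 CPM in muscle 13, 1.40 CPM in the median muscle and 3.17 CPM in muscle 17. Its lowest library held 32 counts, against 197 for the first member.

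MYH7 was not part of the rule. All 100 members correlated positively with it, with a median Spearman correlation of 0.51 and a range from 0.17 to 0.84, whereas the median over all genes was -0.01 and 48.7% of genes were positive. Of the members, 52 reached 0.5, against 10.5% of all genes. MYH1 and MYH7 were themselves correlated at -0.51 over the same 18 libraries, so the relations of the members to the 2 myosin genes are not independent. Given MYH1, the partial Spearman correlation of the members with MYH7 had a median of 0.24 and was positive for 83 of 100 members, against 48.6% of all genes. The score correlated with MYH7 at a Spearman value of 0.68 and a Pearson value of 0.66 over 18 muscles. It was 0.56 and 0.60 after muscles 9 and 13, the 2 farthest from the median of MYH7, were left out. The points of these correlations share 1 horse and the scaling of each library.

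**Figure D3:**
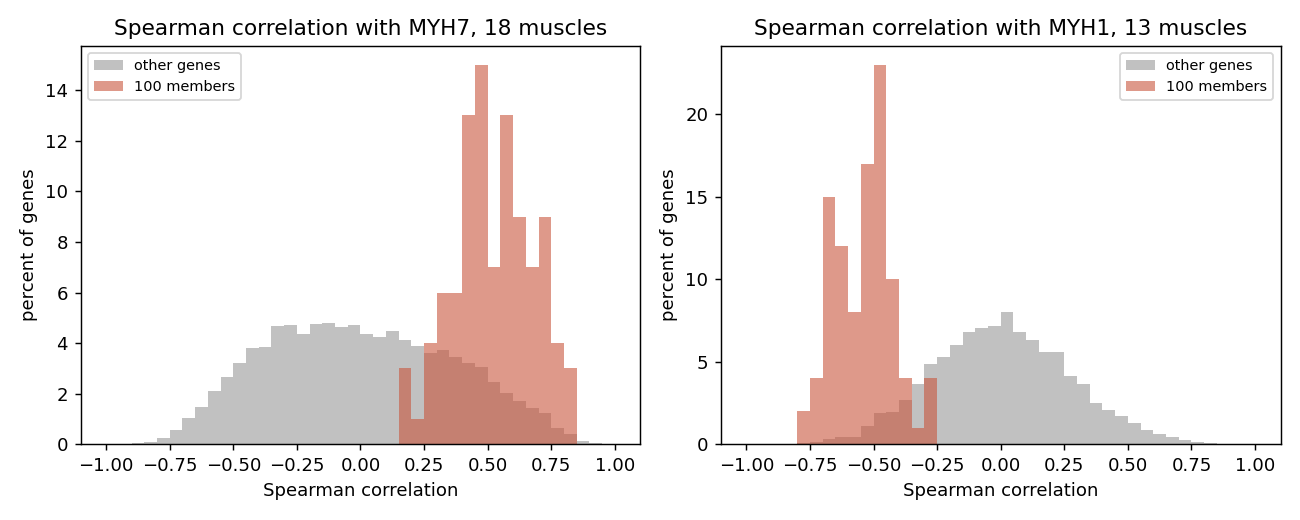
Spearman correlations of the 100 genes and of the other genes with MYH7 over 18 muscles (left) and with MYH1 over the 13 muscles of higher MYH1 (right), as percent of genes in each bin (vertical axis). The members lie between 0.17 and 0.84 on the left and between -0.79 and -0.26 on the right.

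As MYH1 fell in 2 ranges, the relation was also computed within the 13 muscles of the upper range. These are part of the muscles that chose the members, so the values are again a description. All 100 members remained negatively correlated with MYH1 there, with a median of -0.52 and a range from -0.79 to -0.26, and 59 of them were at or below -0.5, against 50.3% of all genes negative and 3.21% at or below -0.5. The score correlated with MYH1 at -0.82 over these 13 muscles and at -0.90 over all 18. The relation to MYH7 was weaker in the 13 muscles. The median member correlated with MYH7 at 0.17, 25 members were negative and 73 positive, against 50.3% and 49.2% of all genes, and 12 members reached 0.5, against 14.4% of all genes. The score correlated with MYH7 at 0.39 there. Within these 13 muscles MYH1 and MYH7 had a Spearman correlation of -0.01. Muscles 5, 6, 7, 8 and 17 are too few for a correlation of their own.

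The members were divided by their correlation with MYH7, which fixes in part where each set is high or low. The 52 members with a correlation of at least 0.5 with MYH7 had scores of 0.71 in muscle 5, 0.68 in muscle 7, 0.70 in muscle 8, 0.73 in muscle 17 and 0.37 in muscle 6. The other 48 members had scores of 0.36, 0.40, 0.51, 0.60 and 0.50 in the same muscles. In the second set the omohyoideus stood above the trapezius and the rhomboideus. In muscle 9, which has the lowest MYH7, the first set was at -0.64 and the second at -0.24. Over the 18 muscles the scores of the 2 sets still correlated at 0.92. This division uses the measured values and was given no test.

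The members with the highest correlation with MYH7 were ENSECAG00000004666 (0.84) and ENSECAG00000019220 (0.83). ENSECAG00000004666 had the widest range of all members, from 0.852 CPM in muscle 13 over 6.11 CPM in the median muscle to 30.1 CPM in muscle 5. It reached 13.9 CPM in muscle 7, 13.7 CPM in muscle 17 and 11.8 CPM in muscle 8, whereas muscle 6, at 6.57 CPM, lay below muscle 3, at 10.7 CPM. ENSECAG00000019220 was at 1.98 CPM in muscle 9, 7.59 CPM in the median muscle and 22.4 CPM in muscle 7, with 22.2 CPM in muscle 5 and 21.9 CPM in muscle 8. The lowest correlations with MYH7 were those of ENSECAG00000006052 (0.17) and ENSECAG00000022016 (0.17). Both were lowest in muscle 10, at 0.753 CPM and 3.35 CPM. The first was highest in muscle 6, at 1.97 CPM, and the second in muscle 17, at 8.86 CPM. MYH7 in these muscles was at 8873 CPM and 12910 CPM.

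**Figure D4:**
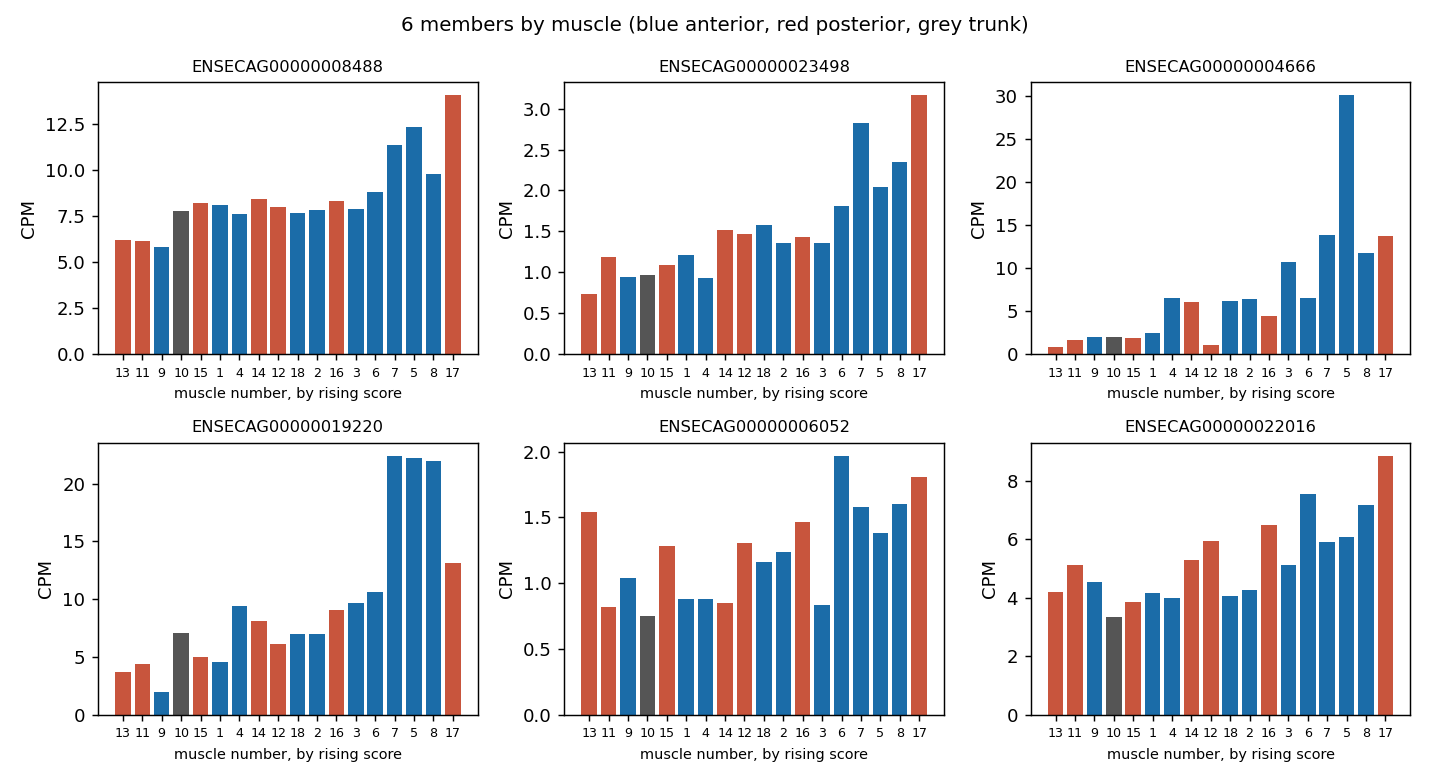
Level in CPM (vertical axis, from 0) of 6 members in each muscle, in the order of the score from left to right. These are the 2 members of lowest correlation with MYH1 and the 2 highest and 2 lowest in correlation with MYH7. ENSECAG00000004666 reaches 30.1 CPM in muscle 5, and ENSECAG00000008488 spans 5.83 to 14.04 CPM.

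The score was also set beside the named genes of the heatmap. Many of the fast twitch and glycolysis genes follow MYH1 themselves, with correlations of 0.92 for MYBPC2 and 0.89 for PKM, so that a negative relation to a score chosen against MYH1 largely follows from the rule. The same holds for the positive relation of the slow twitch genes, which all correlated negatively with MYH1, from -0.81 to -0.24. Their lists were drawn up by the study, in part from these libraries, and all correlations share the same 18 libraries. The 9 slow twitch genes other than MYH7 all correlated positively with the score, with a median of 0.70, and 7 of 9 reached 0.5. Among them, CASQ2, the calsequestrin of slow and cardiac muscle, correlated at 0.70 and rose from 1.93 CPM in muscle 12 to 97.6 CPM in muscle 17. ATP2A2, the calcium pump of slow fibres, correlated at 0.53 and was highest in muscle 7. ACTN2, an actin crosslinker of the Z-disc, correlated at 0.46 and the M-band gene MYOM1 at 0.49. Of the 9 fast twitch genes other than MYH1, 8 were negative, with a median of -0.75 over the list. MYBPC2, the fast myosin binding protein C, was at -0.88, ACTN3, the alpha-actinin of fast fibres, at -0.84, and the fast troponin genes TNNT3 and TNNI2 at -0.85 and -0.84. The exception was MYOM2, an M-band gene, at 0.25.

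Of the 9 glycolysis genes that met the count rule, 8 were negatively correlated with the score, the exception was at 0.64, and the median of the list was -0.89. The glycolytic enzymes PKM and PGAM2 were at -0.90 and -0.89. All 10 genes of oxidative phosphorylation were also negative, with a median of -0.62. Of these, NDUFA8, a subunit of complex I, was at -0.73 and UQCR11, a subunit of complex III, at -0.76, while NDUFV1 was at -0.28. All 10 correlated positively with MYH1, from 0.25 for NDUFV1 to 0.68 for NDUFS8. Their negative relation to a score chosen against MYH1 is therefore not independent of the rule. By muscle, the mean log2 CPM of the glycolysis list was lower in all 5 muscles of highest score, at 7.71 to 8.13, than in the other 13, at 8.40 to 9.60. That of oxidative phosphorylation was lowest in muscles 6, 8 and 17, at 5.62 to 5.64, but it was 6.34 in muscle 5 and 6.31 in muscle 7, above muscles 2, 9, 15 and 16. Within the 13 muscles the score correlated with the mean of the glycolysis list at -0.76 and with that of oxidative phosphorylation at -0.34. The 6 genes of fatty acid oxidation had a median of -0.06 and those of muscle adaptation other than MYH7 and ATP2A2 one of 0.17, and no gene of either list reached 0.5 in either direction.

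Muscles that departed from the relation were found by a rule, a difference of at least 4 places between the rank of the score and the reversed rank of MYH1, or 1 of the 3 largest residuals from a straight line of score on log2 CPM of MYH1. The line had a slope of -0.15 per unit of log2 CPM and residuals with an SD of 0.157. Muscles 3, 13 and 17 met the rule. The score of muscle 3 lay 0.30 above the line. The infraspinatus had 6576 CPM of MYH1, and MYH7 was at 12321 CPM, with 4 muscles above it. Muscle 17 lay 0.26 above the line and had the highest score with only the fifth lowest MYH1. CASQ2 was also highest in it. Muscle 13 lay 0.27 below the line, with the lowest score although 4 muscles had more MYH1, and its MYH7, at 2314 CPM, was the second lowest. The share of MYH7 in the counts of MYH1 and MYH7 together had a Spearman correlation of 0.96 with the score. It leaves out the myosin of type IIa fibres, which the study describes as intermediate, so it is not the fraction of slow fibres. The share contains MYH1, which chose the members, so a high value follows largely from the rule. In muscle 16 it was 69.4% and in muscle 12 59.4%, and both had scores near 0, at 0.06 and -0.10. Total counts, the TMM factor and the share of the most abundant gene correlated with the score at -0.18, -0.04 and -0.09.

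Position follows from the muscle named in each label and was not used by the rule, so posterior and anterior muscles were compared with a test. MYH1, which chose the members, was unevenly spread over the positions. Its lower range holds the anterior muscles 5, 6, 7 and 8 and the posterior muscle 17. The direction of the members in this comparison is therefore not independent of the values that chose them. Anterior muscles had scores from -0.45 to 0.61 with a median of 0.09 (n = 10), and posterior muscles from -0.55 to 0.67 with a median of -0.12 (n = 7). The positions overlapped over nearly their whole range. All 100 members were tested with the edgeR quasi-likelihood test over 12978 genes, and 0 were called at a Benjamini-Hochberg adjusted p below 0.05. This test called 0.0385% of all genes in either direction, 0.0231% higher and 0.0154% lower in posterior muscles. The smallest adjusted p of a member from edgeR was 0.172. At an unadjusted p below 0.05 from edgeR there were 9 members, all lower in posterior muscles, against 15.7% of all genes. The DESeq2 Wald test called 0 members, with 10 at an unadjusted p below 0.05, against 16.7% of all genes. The share of all genes that DESeq2 called is not given here, so its count of 0 was not set against one. The smallest adjusted p of a member from DESeq2 was 0.078. The log2FC of posterior against anterior muscles had a median of -0.19 over the members, from -1.18 to 0.32, and 83 of 100 were lower in posterior muscles, against a median of -0.0025 and 50.3% of genes lower over all genes tested. No member had levels that did not overlap between positions, as was the case for 0.0803% of genes. The members are correlated with each other, so their directions are not independent observations.

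Muscle 17 weighed on this comparison. Without it the highest posterior score was 0.06, all 100 members were lower in posterior muscles with a median log2FC of -0.34, and 36 had an unadjusted p below 0.05, against 51.5% of all genes lower and 14.95% at an unadjusted p below 0.05 in the same fit, although 0 had an adjusted p below 0.05 in edgeR. Muscle 17 is the only posterior muscle in the lower range of MYH1, which holds 4 anterior muscles. With or without it, the direction of the members is therefore not independent of the values that chose them. How much of the direction follows from those values was not tested. With the 3 parts of the biceps femoris summed into 1 sample, which leaves 5 posterior samples, the median log2FC was -0.13. In that fit 70 members were lower, 3 had an unadjusted p below 0.05 and 0 were called. Of all genes, 51.6% were lower and 15.2% had an unadjusted p below 0.05. The share of all genes called is not given for this fit or for the fit without muscle 17. With MYH1 as a covariate the median log2FC was -0.07 and 62 members were lower, against 51.1% of all genes. As an example, ENSECAG00000004666 ran from 2.01 over 6.53 to 30.1 CPM in anterior muscles and from 0.852 over 1.80 to 13.7 CPM in posterior muscles (lowest, median and highest). Its log2FC was -1.18 with a standard error of 0.57 (adjusted p = 0.320 from edgeR), so the positions overlapped and the difference did not pass the threshold. The log2FC was -1.87 without muscle 17, -0.81 without muscle 5 and -0.83 with MYH1 as a covariate.

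**Figure D5:**
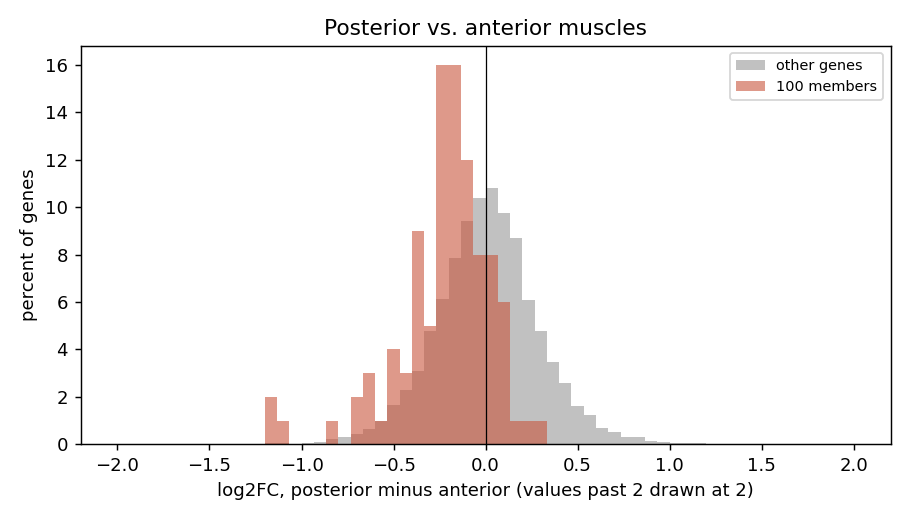
The log2FC of posterior against anterior muscles (horizontal axis) for the 100 members and for the other genes that also met the count rule, as percent of genes in each bin (vertical axis), with values past 2 drawn at 2. The members center on a median of -0.19 and reach from -1.18 to 0.32.

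The main groups A and B of the study, which were formed by clustering the same counts, overlapped in the score. It ran from -0.42 to 0.61 in the 9 muscles of group A and from -0.55 to 0.67 in the 9 of group B. The subgroup names follow the study's heatmap, and its plot of principal components shows the names A1 and A2 exchanged. The 3 muscles of subgroup A2 (5, 7 and 8) lay between 0.54 and 0.61 and those of B2 (6 and 17) at 0.43 and 0.67, while no muscle of another subgroup exceeded 0.16. The score ran from -0.55 to -0.08 in the 5 muscles of B1 and from -0.42 to 0.16 in the 4 of A1, and it was -0.35 and 0.03 in A3 and -0.45 and 0.06 in B3. As the groups rest on the same libraries, these values were not tested.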

How the data were processed

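The authors deposited whole-number counts of reads per Ensembl gene, without normalization, for 18 muscles with 1 library each. Per the labels and the study's methods, libraries were depleted of ribosomal RNA, and reads cleaned by NGSQCToolkit were mapped in 2 passes with STAR (2.5.2b per the submitters' processing notes) to EquCab2. The strand setting is not given in the sources used here, so reads of a member and of a gene that overlaps it cannot be told apart. Counts on genes were 31395013 to 50508515 per library, and members with few counts carry more counting error.

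The members and lists were chosen with earlier results of these data known. Levels are log2 CPM (TMM over the 11201 genes kept, prior count 2). Posterior vs. anterior was tested over 12978 genes passing filterByExpr with edgeR 4.0.16 (glmQLFit, glmQLFTest, Benjamini-Hochberg) in R 4.3.3. Standard errors are the log2FC divided by the root of F. The trunk muscle was left out of this fit. P-values measure the spread between muscles of 1 horse. Alternatives were DESeq2 1.42.0 (test and size factors), other filters and prior counts, Pearson ranking, other uses of the trunk muscle, MYH1 as a covariate, the 3 parts of the biceps femoris summed and each muscle left out in turn.

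In data simulated for posterior vs. anterior over 12822 genes, the test recovered 77 of 100 genes changed by a log2FC of 1 and 98 of 100 changed by 2, with 8 false calls, and it called 0 genes when none was changed. Genes were simulated independently of each other, whereas the members are correlated and had a median log2FC of -0.19. Recovery of changes as small as that was not simulated. The ranking recovered 98 of 100 planted genes among 11201. Recovery at the spread of the members, with a median SD of 0.43 in log2 CPM over the 18 muscles, was not tested. In the measured values, 47 (Pearson ranking) to 100 (prior count of 0.5) of the members were chosen again under 5 other settings. With a muscle left out, 55 to 87 were.

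The rule named members in lists of muscle functions and cell types, the 10 lowest correlations with MYH1, the 3 genes on each side of the limit, the 5 highest and 3 lowest correlations with MYH7 and, by position, the 5 largest called changes in each direction. The reference table holds no Ensembl identifier of the count table, so these lists and markers were not used here, no sequence is shown, and at most 2 identifiers are given at each end, beside the genes on both sides of the limit. Heatmap genes were identified by counts read from the study's heatmap, used only to find their identifiers. Names are given for part of them, and 51 of 52 met the count rule. Python 3.11.15 with pandas 2.3.3 and matplotlib 3.10.9 made the summaries and plots.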

Additional observations from a re-analysis of the deposited data

Results flagged for a closer look

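Within the 10 anterior and the 7 posterior muscles, the score, MYH1, MYH7 and the 6 members described by identifier were searched for a muscle far from the others of its position by Dixon's criterion at the 95% level. Of the 18 sets of values, 2 held such a muscle, and chance alone passes this level in the remaining share of sets. MYH7 in muscle 9 (extensor carpi radialis) was at 9.75 log2 CPM, and the next anterior muscle was at 12.46. The gap took 0.548 of the range of the 10 muscles. ENSECAG00000008488 in muscle 17 (extensor digitorum lateralis) was at 3.82 log2 CPM and the next posterior muscle at 3.08, a gap of 0.624 of the range of the 7 muscles. This gene had the lowest correlation with MYH1, and muscle 17 is the only posterior muscle in the lower range of MYH1, so the rule that chose the gene favours a high value there and the criterion is no independent test of it.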

How the results depend on the processing

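Of the 100 members, 100 were chosen again with a prior count of 0.5, 95 with edgeR's filterByExpr and 89 with the size factors of DESeq2, but 50 with library totals in place of TMM and 47 when genes were ranked by Pearson correlation. With TMM over all genes, an alternative chosen after seeing the data, 88 were chosen again. With each muscle left out in turn, 55 (without muscle 9) to 87 remained, and the other fits kept at least 71. In the 13 muscles without the 5 of lowest MYH1, chosen after seeing the data, 26 were among the lowest 100. The Spearman correlation of the score with MYH7, 0.68, stayed between 0.625 (without muscle 13) and 0.745 (without muscle 16). It was 0.61 with the mean of z values or the median over members, 0.96 with the share of MYH7, which contains the selecting gene MYH1 and so says nothing of stability, and, in alternatives chosen after seeing the data, 0.39 in the 13 muscles, 0.50 without muscles 3, 13 and 17 and 0.56 without muscles 9 and 13. The number of members called for position was 0 under all 9 other settings and in all 17 fits that left out a muscle. Of these settings, summing the 3 parts of the biceps femoris was chosen after seeing the data. The share of all genes called is given only for the main edgeR fit, at 0.0385%. These counts of 0 therefore do not set the members apart from other genes. In the fits that left out a muscle, 2 (without muscle 13) to 36 (without muscle 17) members had an unadjusted p below 0.05. The shares of all genes in the same 2 fits were 10.6% and 14.95%. The log2FC of the 6 members described was never called, and 13 of 156 alternative values differed in sign from the value reported. For ENSECAG00000008488 (-0.03) the values were 0.093 with MYH1 as a covariate, 0.024 with the biceps femoris summed and -0.19 to 0.035 with a muscle left out, and for ENSECAG00000023498 (-0.10) they were 0.10, 0.025 and -0.39 to 0.012. For ENSECAG00000006052 (0.06) they were -0.012 with the trunk muscle as posterior and -0.033 to 0.15 with a muscle left out, and for ENSECAG00000022016 (0.12) -0.023 to 0.19 with a muscle left out. Pairing by animal was not possible because all libraries are from 1 horse, with 1 library per muscle. The causes were not tested. Precision is limited by 1 library per muscle and by members with few counts.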
